A study of Mus musculus with 13 samples.

Results

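The genes described here are imprinted regulators of growth, measured in the endometrium of ovariectomized mice that did or did not receive estradiol and a high-fat diet. The set was given as 10 genes: Igf2, H19, Igf2r, Grb10, Cdkn1c, Plagl1, Dlk1, Meg3, Mest and Peg3. A gene was taken as measured where an array feature (a group of probes for 1 transcript cluster) carried its symbol and no other. This held for 8 of the 10 genes, each with 1 feature, out of 30142 genes with a feature of 1 symbol. The features that name the long noncoding RNA genes H19 and Meg3 also carry other symbols, so no value is given for these 2 genes.

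An imprinted gene is expressed mainly from the copy inherited from 1 parent, under control regions whose DNA methylation is set in the egg or sperm. Many such genes act on growth: paternally expressed genes such as Igf2, Plagl1, Dlk1, Mest and Peg3 and maternally expressed genes such as Igf2r, Grb10, Cdkn1c, H19 and Meg3 are known above all for their roles in the fetus and placenta. Several are expressed at lower levels after birth, and IGF signalling is a known mediator of estrogen-driven growth in the uterus. The arrays read total RNA of a gene and do not separate the parental copies.

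All animals were female C57BL/6 mice whose ovaries had been removed on both sides at 6 to 8 weeks of age, the controls included, so no group had ovarian hormones of its own. For 12 weeks they received chow (CON, 3 mice), chow and a pellet under the skin that released 17-β estradiol (E2, 4 mice), a high-fat diet (HD, 3 mice) or the pellet together with the high-fat diet (MIX, 3 mice). The uterus was then opened along its length and its lining scraped off, and 250 ng of total RNA per mouse was labelled for 1 array. The different animal codes in the titles are what marks the samples as separate mice, and the p-values measure the spread between these samples.

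Values are log2 expression from the RMA method, and a difference of 1 is a 2-fold difference. The arrays held 65929 features, with medians between 4.48 and 4.71 and pairwise correlations of 0.960 to 0.995. Markers of both parts of the endometrium were present: the mean of 7 of 7 listed epithelial genes (keratins, adhesion genes, Foxa2 and Muc1) lay between 10.2 and 10.7 in every mouse, and that of 8 of 9 stromal genes between 7.99 and 9.80. Smooth muscle markers (6 of 6 measured, 6.39 to 7.80) were also detected, and 3 of 5 adipocyte markers lay below the median feature of 4.62. MIX replicate 2 had the highest stromal (9.80), pericyte (7.68) and endothelial (8.29) marker means of all mice. Animal codes in the titles are either numbered (2 CON, 3 E2 and 2 HD mice) or lettered (all 3 MIX mice and 1 mouse in each other group). The labels do not explain these styles, and the style is a term in every fit. No measured member differed between the styles at an adjusted p under 0.05 (limma, adjusted p 0.943 to 0.998).

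None of the 8 measured genes passed the test in any of the 8 comparisons (limma, with p adjusted by Benjamini-Hochberg over the 65929 features and a threshold of 0.05). In the averaged pellet difference Cdkn1c had an unadjusted p of 0.0288, and in no other pairing of a gene with a comparison was the unadjusted p under 0.05 in this fit. Some alternative fits gave other pairings such a value, as described below for the diet. The largest spans between group means were in Plagl1 (0.71, CON highest and MIX lowest) and Grb10 (0.67, CON highest and MIX lowest), against standard deviations within groups of 0.38 and 0.42. The group means of Igf2r spanned 0.26 (MIX highest, CON lowest), those of Cdkn1c 0.25 (E2 highest, CON lowest) and those of Mest 0.33 (MIX highest, CON lowest). The group means of Igf2, Dlk1 and Peg3 lay within 0.06, 0.06 and 0.03 of each other. All 8 features had a mean above that of the median feature, which is no limit of detection. Igf2, Mest and Peg3 lay near it, at percentiles 55.6, 52.1 and 50.6 of the features. Whether their features carry signal was not tested. Where a value below is higher or lower in a group, fewer cells that express the gene and less RNA per cell cannot be told apart in such bulk tissue.

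**Figure D1:**
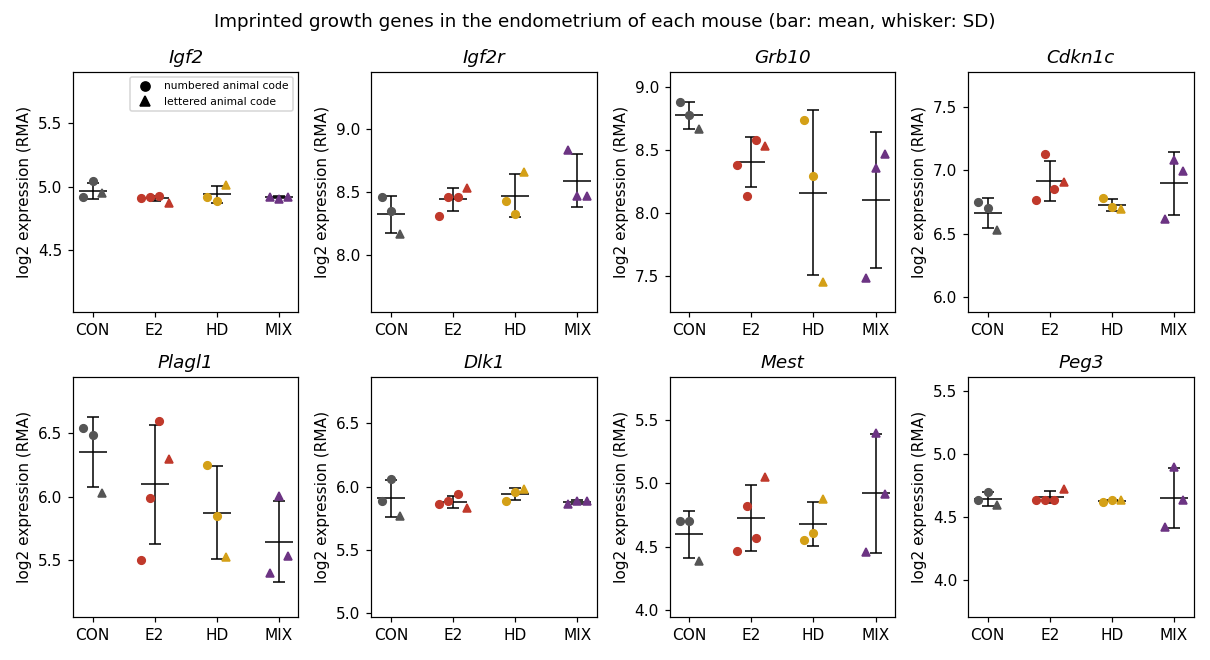
Expression of the 8 measured imprinted growth genes in each mouse. The x axis gives the group and the y axis log2 expression (RMA) over the same height in every panel, circles are mice with numbered and triangles mice with lettered animal codes, bars are group means and whiskers 1 SD. The group means of Igf2, Dlk1 and Peg3 are nearly level, though the MIX mice reach from 4.42 to 4.89 in Peg3. Over all mice Grb10 reaches from 7.45 to 8.88 and Plagl1 from 5.39 to 6.59.

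Igf2 encodes insulin-like growth factor 2, a fetal growth factor that signals through the IGF1 and insulin receptors. Its feature (TC0700004571.mm.1) read 4.92, 5.04 and 4.95 in CON replicates 1 to 3, 4.91, 4.92, 4.92 and 4.87 in E2 replicates 1 to 4, 4.92, 4.89 and 5.01 in HD and 4.92, 4.91 and 4.92 in MIX. All 13 mice lay within 0.17 of each other, CON replicate 2 was the highest, and the groups overlapped. The SD over all mice, 0.05, was at percentile 1.89 of the features, and 5 mice had the identical value 4.918503. As many or more identical values were found in 5.94% of features. The averaged pellet difference, which is the mean of E2 minus CON and MIX minus HD, was -0.05 (SE 0.04, 95% interval -0.14 to 0.05, adjusted p = 0.743).

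Igf2r encodes the cation-independent mannose-6-phosphate receptor, which binds IGF2 without passing on a growth signal and carries it to the lysosome. The feature (TC1700001451.mm.1) read 8.46, 8.35 and 8.17 in CON, 8.31, 8.46, 8.46 and 8.53 in E2, 8.43, 8.33 and 8.66 in HD and 8.83, 8.47 and 8.47 in MIX. CON replicate 3 was the lowest and MIX replicate 1 the highest, and every MIX mouse lay above every CON mouse, the smallest gap being below 0.01 between a CON mouse and a MIX mouse. Means were 8.33 ± 0.15 (SD, n = 3) in CON, 8.44 ± 0.09 (n = 4) in E2, 8.47 ± 0.17 (n = 3) in HD and 8.59 ± 0.21 (n = 3) in MIX. For the pellet averaged over diets the difference was 0.10 (SE 0.09, 95% interval -0.10 to 0.30, adjusted p = 0.733).

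Grb10 encodes an adaptor protein that binds the insulin and IGF1 receptors and dampens their signal. Its feature (TC1100002227.mm.1) read 8.88, 8.77 and 8.66 in CON, 8.38, 8.14, 8.58 and 8.53 in E2, 8.74, 8.30 and 7.45 in HD and 7.49, 8.36 and 8.47 in MIX. HD replicate 3 and MIX replicate 1 were the lowest by more than 0.6, and the CON mice lay above all E2 and all MIX mice but not above HD replicate 1. Means were 8.77 ± 0.11 in CON, 8.41 ± 0.20 in E2, 8.16 ± 0.65 in HD and 8.11 ± 0.54 in MIX. The SD over all mice was 0.45, at percentile 92.6 of the features. Averaged over diets, the pellet difference was -0.11 (SE 0.22, 95% interval -0.60 to 0.37, adjusted p = 0.891). Among the lettered mice alone, with 1 mouse each in CON, E2 and HD, it was 0.26.

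Cdkn1c encodes p57, an inhibitor of cyclin-dependent kinases that holds cells out of the cell cycle and is known in the uterus for its part in stromal differentiation. Its feature (TC0700004585.mm.1) read 6.75, 6.70 and 6.52 in CON, 6.76, 7.13, 6.86 and 6.91 in E2, 6.78, 6.71 and 6.70 in HD and 6.62, 7.08 and 6.997 in MIX. The 4 E2 mice lay above all 3 CON mice, the lowest E2 mouse by 0.01, and MIX replicate 1 lay below 5 of the 6 mice without a pellet. The 7 mice with a pellet ranged from 6.62 to 7.13 (median 6.91) and the 6 without from 6.52 to 6.78 (median 6.70). The averaged pellet difference was 0.24 (SE 0.09, 95% interval 0.03 to 0.45, unadjusted p = 0.0288, adjusted p = 0.453 in limma), and 0.29 among the lettered mice. It stayed between 0.19 and 0.31 over 20 alternatives, with adjusted p from 0.147 to 0.976. The unadjusted p was 0.05 or more in 8 of these 20: with array weights, in the lettered mice alone, and without E2 replicate 2, HD replicate 2, CON replicate 3, HD replicate 3, MIX replicate 2 or MIX replicate 3.

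The macrophage marker mean was higher in each E2 mouse than in each mouse without a pellet. Over its 6 markers, all measured, it was 6.59 to 7.10 in CON, 7.57 to 8.24 in E2, 7.11 to 7.51 in HD and 7.34 to 8.57 in MIX. Of these 6 markers, 5 were higher in every E2 mouse than in any CON mouse, against 3.01% of all features. The mean of the 8 measured stromal markers of 9 was 7.99 to 8.69 in CON, 8.12 to 9.37 in E2, 8.28 to 8.45 in HD and 8.24 to 9.80 in MIX. The lowest stromal mean and the lowest Cdkn1c of a group fell on the same mouse in CON (replicate 3), HD (replicate 3) and MIX (replicate 1). In E2 they did not, with the lowest stromal mean in replicate 3 (8.12) and the lowest Cdkn1c in replicate 1 (6.76). The mean of the 5 mesothelial markers, all measured, was 7.38 to 7.99 in CON, 7.99 to 9.16 in E2, 8.01 to 8.13 in HD and 8.33 to 9.05 in MIX. Of the mesothelial markers 5 of 5 had a positive averaged pellet difference (median 0.99), against 38.9% of all features. So had 6 of 6 macrophage markers (median 0.90) and 8 of 8 stromal markers (median 0.50). The part of these cell types in the Cdkn1c values was not tested.

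Plagl1 encodes a zinc finger transcription factor, also called ZAC1, that can arrest the cell cycle and that regulates other imprinted genes. The feature (TC1000000093.mm.1) read 6.54, 6.49 and 6.03 in CON, 5.50, 5.99, 6.59 and 6.30 in E2, 6.25, 5.84 and 5.52 in HD and 5.39, 6.00 and 5.53 in MIX. The MIX mice all lay below the CON mice, by 0.03 at the nearest pair, while the E2 mice spread from 5.50 to 6.59. The mean of the 6 squamous epithelial markers, all measured, was 7.68 to 9.48 in MIX, 6.61 to 7.92 in E2, 6.03 to 6.15 in HD and 5.91 to 6.34 in CON. All 6 were higher in every MIX mouse than in any CON mouse, against 5.52% of all features. In the averaged pellet difference 2 of them passed (limma), Krt13 (2.54, SE 0.28, adjusted p = 0.0296) and Krt15 (1.66, SE 0.19, adjusted p = 0.0400), against 0.0167% of all features. The part of squamous cells in the values of Plagl1, Grb10 and Igf2r was not tested. Means were 6.35 ± 0.28 in CON, 6.10 ± 0.47 in E2, 5.87 ± 0.37 in HD and 5.64 ± 0.32 in MIX. The averaged pellet difference was -0.18 (SE 0.20, 95% interval -0.63 to 0.28, adjusted p = 0.796), and among the lettered mice 0.20.

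Dlk1 encodes a membrane-bound and shed protein of the Notch ligand family that holds back adipocyte differentiation. Its feature (TC1200001125.mm.1) read 5.89, 6.06 and 5.77 in CON, 5.86, 5.89, 5.94 and 5.83 in E2, 5.89, 5.95 and 5.98 in HD and 5.86, 5.88 and 5.89 in MIX. Both the highest and the lowest mouse were controls, and 4 mice shared the value 5.885915. As many or more identical values were found in 12.0% of features. With the pellet, averaged over diets, Dlk1 differed by -0.02 (SE 0.05, 95% interval -0.14 to 0.09, adjusted p = 0.906).

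Mest encodes a membrane protein with a hydrolase fold, expressed in embryonic mesoderm and linked to the growth of fat tissue. The feature (TC0600000277.mm.1) read 4.70, 4.70 and 4.38 in CON, 4.47, 4.82, 4.57 and 5.05 in E2, 4.55, 4.61 and 4.88 in HD and 4.46, 5.40 and 4.91 in MIX. MIX replicate 2 was the highest and CON replicate 3 the lowest, and all groups overlapped. Mest differed by 0.14 with the pellet, averaged over diets (SE 0.16, 95% interval -0.22 to 0.51, adjusted p = 0.789), and by -0.03 without CON replicate 3.

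Peg3 encodes a large zinc finger protein known for its roles in maternal behaviour, metabolism and stem cells. The feature (TC0700002217.mm.1) read 4.63, 4.70 and 4.59 in CON, 4.63, 4.63, 4.63 and 4.73 in E2, 4.62, 4.63 and 4.63 in HD and 4.42, 4.89 and 4.63 in MIX. MIX held both the highest and the lowest mouse. The value 4.632401 occurred in 7 mice, and 1.35% of features had as many or more identical values. The averaged pellet difference was 0.01 (SE 0.07, 95% interval -0.15 to 0.18, adjusted p = 0.968). For a feature this near the array median and with this many identical values, RMA may hide a small difference.

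The pellet averaged over both diets compares the 7 mice with estradiol with the 6 without. Of the 8 genes, 4 had a positive and 4 a negative difference, with a median of -0.01, while the median over all features was -0.03 and 38.9% of features had a positive difference. No member was called (limma), against 0.0167% of all features, and 1 of 8 had an unadjusted p under 0.05, against 9.99%. A share of 1 in 8 is near that of all features.

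**Figure D2:**
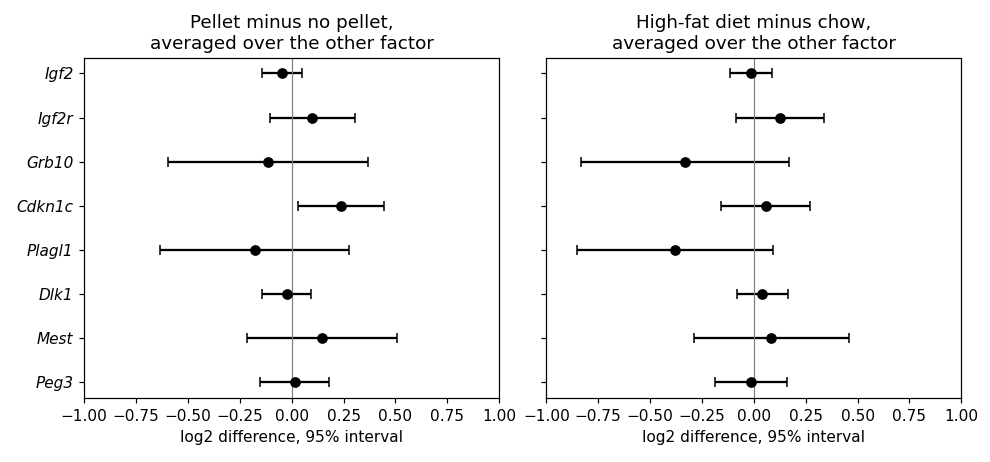
Averaged differences of the 8 genes, as log2 difference on the x axis with 95% intervals as bars, for the estradiol pellet (left) and the high-fat diet (right). The interval of Cdkn1c for the pellet, 0.03 to 0.45, is the only one of the 16 that leaves out 0, and those of Grb10 and Plagl1 are the widest.

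On chow, the pellet was compared in E2 and CON. The ranges of 2 members did not overlap between these groups, Cdkn1c (higher in E2) and Grb10 (lower in E2). Of all features 5.61% had no overlap, 3.01% higher and 2.6% lower in E2. No member was called (limma), as for 0% of all features, and no member had an unadjusted p under 0.05, against 4.02% of features. The members with the smallest p were Cdkn1c, with a difference of 0.25 (SE 0.12, unadjusted p = 0.0662), Grb10, with -0.39 (SE 0.28), and Igf2, with -0.06 (SE 0.06), all at an adjusted p of 1 in limma. In the numbered and the lettered mice Cdkn1c differed by 0.19 and 0.38 and Grb10 by -0.46 and -0.14. The lettered values are those of 1 mouse against 1, E2 replicate 4 minus CON replicate 3. Without E2 replicate 4 the Grb10 difference was -0.61.

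On the high-fat diet, the pellet was compared in MIX and HD. All 8 members overlapped between these groups, where 15.9% of features did not. No member was called (limma), against 0.00455% of features, and none had an unadjusted p under 0.05, against 7.05%. Cdkn1c differed by 0.23 (SE 0.15, adjusted p = 0.748), Mest by 0.14 (SE 0.26, adjusted p = 0.915) and Igf2r by 0.08 (SE 0.14, adjusted p = 0.918). In the 4 lettered mice of these groups the Igf2r difference was -0.07.

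The interaction subtracts E2 minus CON from MIX minus HD and asks whether the diet alters the response to estradiol. No member was called (limma), as for 0% of features, and none had an unadjusted p under 0.05, against 2.1%. It was 0.56 for Grb10 (SE 0.45), 0.20 for Plagl1 (SE 0.43) and 0.03 for Igf2 (SE 0.09), at an adjusted p of 1 in limma. Without HD replicate 3, the mouse with the lowest Grb10, the value for Grb10 was -0.05 and that for Plagl1 -0.06.

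The diet without a pellet was compared in HD and CON. All 8 members overlapped between these groups, where 8.54% of features did not, and no member was called (limma), as for 0% of features. None had an unadjusted p under 0.05, against 2.91%. Grb10 differed by -0.61 (SE 0.30, 95% interval -1.28 to 0.05, unadjusted p = 0.0673), Plagl1 by -0.48 (SE 0.28) and Igf2r by 0.14 (SE 0.13), at an adjusted p of 1 in limma. The Grb10 value was -0.31 in the numbered and -1.21 in the lettered mice, and -0.25 without HD replicate 3. That of Plagl1 was -0.46 and -0.51 in the numbered and lettered mice. The lettered values are those of 1 mouse against 1, HD replicate 3 minus CON replicate 3. With array weights, and with only these groups fitted, 2 members had an unadjusted p under 0.05 (limma). Over the alternatives the smallest unadjusted p was 0.00816 for Plagl1 and 0.0201 for Grb10 (limma), with adjusted p of at least 0.219 and 0.264. The share of all features in these fits was not computed.

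With a pellet, the diet was compared in MIX and E2. All 8 members overlapped between the groups, where 5.65% of features did not, no member was called (limma), as for 0% of features, and none had an unadjusted p under 0.05, against 2.78%. Plagl1 differed by -0.28 (SE 0.32), Igf2r by 0.10 (SE 0.14) and Dlk1 by 0.05 (SE 0.08), at an adjusted p of 1 in limma. Without E2 replicate 4 the Plagl1 difference was 0.12, and without MIX replicate 1 the Igf2r difference was -0.02.

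Averaged over both pellet states, the diet difference was -0.38 for Plagl1 (SE 0.21, 95% interval -0.85 to 0.09), -0.33 for Grb10 (SE 0.23, 95% interval -0.83 to 0.17) and 0.12 for Igf2r (SE 0.09, 95% interval -0.09 to 0.34), at an adjusted p of 1 in limma. No member was called, as for 0% of features, and none had an unadjusted p under 0.05, against 3.36%. Without E2 replicate 4 these differences were -0.18 for Plagl1 and -0.13 for Grb10. With array weights 2 members had an unadjusted p under 0.05 (limma). Over the alternatives the smallest unadjusted p was 0.00918 for Plagl1 and 0.0223 for Grb10 (limma), with adjusted p of at least 0.334 and 0.366. The share of all features in these fits was not computed.

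Both treatments together were compared with neither in MIX and CON. The ranges of 3 members did not overlap, Grb10 and Plagl1 (lower in MIX) and Igf2r (higher in MIX). Of all features 17.9% had no overlap, 5.52% higher and 12.4% lower in MIX. No member was called (limma), against 0.00303% of features, and none had an unadjusted p under 0.05, against 8.34%. The members with the smallest p were Cdkn1c, with 0.29 (SE 0.15, adjusted p = 0.645), Plagl1, with -0.56 (SE 0.32, adjusted p = 0.698), and Igf2r, with 0.22 (SE 0.14, adjusted p = 0.723). The code style term moves these values, since MIX has lettered mice alone, and the plain differences of group means were 0.24, -0.71 and 0.26. For Grb10 the plain difference was -0.67 and the adjusted one -0.45 (SE 0.34). Without CON replicate 3 the adjusted difference of Igf2r was -0.01.

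Some pairs of members varied together across the mice of all groups. Over the 28 pairs of measured members, Pearson's r ran from -0.721 to 0.797 with a median of 0.083, and 18 pairs were positive. At an adjusted p under 0.05 over the 28 pairs (permutation test, 100000 resamples, two-sided), 4 pairs passed by Pearson's r and 2 of them by Spearman's rho as well. The mice were permuted without regard to group or code style, so these p-values do not separate differences between groups from variation within them. The 4 pairs, 14.3% of the 28, are those with r of at least 0.7 in size. As a description, that held for 2.85% of the pairs of all features. It held for 4.42% of the pairs of features at or above the median feature mean. The value 0.7 lies just below the weakest of the 4 in size (r = -0.721), so the 14.3% follows from these pairs and tests nothing. Mest and Grb10 are each in more than 1 of the 4 pairs.

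Peg3 and Mest had the highest correlation, with r = 0.797 (permutation p = 0.00111, adjusted p = 0.0262) and rho = 0.808 (permutation p = 0.00078, adjusted p = 0.0218). MIX replicate 2 was the highest in both genes, at 4.89 and 5.40, and MIX replicate 1 was the lowest in Peg3 (4.42) and the second lowest in Mest (4.46). Without these 2 mice, the farthest from the median of Peg3, r was 0.627. It was 0.882 for the residuals of the fit, 0.294 among the 7 numbered and 0.894 among the 6 lettered mice. The 7 mice with an identical Peg3 value spanned Mest values from 4.47 to 4.91. The endothelial marker mean (5 of 5 measured) was 8.29 in MIX replicate 2 and 4.89 in MIX replicate 1, the highest and the lowest of all mice, and lay between 5.33 and 6.37 in the others. The pericyte mean (4 of 4 measured) was likewise highest in MIX replicate 2 (7.68) and lowest in MIX replicate 1 (5.75). The part of these cell types in the correlation was not tested.

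Grb10 and Plagl1 followed, with r = 0.745 (permutation p = 0.00187, adjusted p = 0.0262) and rho = 0.797 (permutation p = 0.00177, adjusted p = 0.0248). HD replicate 3 and MIX replicate 1 were low in both genes, at 7.45 and 7.49 for Grb10 and 5.52 and 5.39 for Plagl1, and CON replicates 1 and 2 were high in both. Without the 2 low mice r was 0.632. It was 0.721 among the numbered and 0.740 among the lettered mice, 0.575 for the residuals, and 0.673 to 0.816 with each mouse left out in turn. The mean of 5 of 6 proliferation markers measured was 6.63 in HD replicate 3 and 7.62 in MIX replicate 1, against 9.22 and 8.76 in CON replicates 1 and 2, and it was lowest (6.58) in E2 replicate 2, whose Grb10 was 8.14. Its part in the correlation was not tested.

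Cdkn1c and Mest had r = 0.728 (permutation p = 0.0044, adjusted p = 0.0411) and rho = 0.633 (adjusted p = 0.212 in the permutation test), with 0.671 without E2 replicate 2 and MIX replicate 2, and 0.559 and 0.913 in numbered and lettered mice. Grb10 and Igf2r had r = -0.721 (permutation p = 0.0064, adjusted p = 0.0448) and rho = -0.464 (adjusted p = 0.452 in the permutation test). Without HD replicate 3 and MIX replicate 1, which were lowest in Grb10 and highest in Igf2r, r was -0.101, so the relation rests on these 2 mice. It was 0.210 among the numbered and -0.841 among the lettered mice. Igf2 and Dlk1 (r = 0.644) and Cdkn1c and Peg3 (r = 0.574) did not pass, with adjusted permutation p-values of 0.129 and 0.170.

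**Figure D3:**
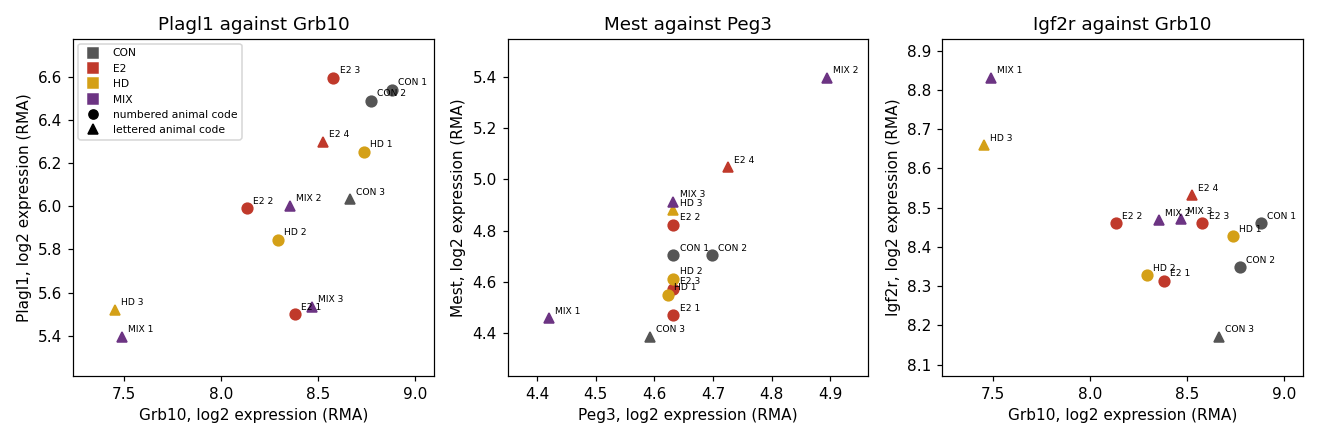
Pairs of imprinted growth genes in the 13 mice, each point a mouse labelled by group and replicate, both axes in log2 expression (RMA), with circles for numbered and triangles for lettered codes. Plagl1 follows Grb10 (r = 0.745) and Mest follows Peg3 (r = 0.797), with MIX replicates 1 and 2 at the ends of the Peg3 axis, and the slope of Igf2r on Grb10 comes from HD replicate 3 and MIX replicate 1.

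The RefSeq promoter windows of Grb10 and Plagl1 (GRCm38.p6, 250 bases before to 50 after a transcription start) are shown because these genes varied together and because Grb10 has starts of unlike CG content. The gene strand is given in parentheses, and capitals mark CG dinucleotides, the letters at which mammalian DNA is methylated. The array features do not tell the starts apart.
Plagl1 at chr10:13090582-13090881 (+): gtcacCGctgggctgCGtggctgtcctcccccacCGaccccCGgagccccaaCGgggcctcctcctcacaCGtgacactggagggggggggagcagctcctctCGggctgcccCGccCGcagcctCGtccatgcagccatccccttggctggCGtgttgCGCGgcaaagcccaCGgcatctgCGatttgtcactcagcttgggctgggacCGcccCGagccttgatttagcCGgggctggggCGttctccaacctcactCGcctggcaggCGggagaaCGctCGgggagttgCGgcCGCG
Grb10, first start, at chr11:12037371-12037670 (-): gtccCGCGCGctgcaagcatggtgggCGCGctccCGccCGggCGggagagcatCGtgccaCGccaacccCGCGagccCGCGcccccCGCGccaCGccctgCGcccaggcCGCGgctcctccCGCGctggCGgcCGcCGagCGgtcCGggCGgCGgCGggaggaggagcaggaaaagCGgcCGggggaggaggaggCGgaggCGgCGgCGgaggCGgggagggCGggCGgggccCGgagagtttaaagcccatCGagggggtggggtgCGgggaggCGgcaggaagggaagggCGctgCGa
Grb10, second start, at chr11:12027922-12028221 (-): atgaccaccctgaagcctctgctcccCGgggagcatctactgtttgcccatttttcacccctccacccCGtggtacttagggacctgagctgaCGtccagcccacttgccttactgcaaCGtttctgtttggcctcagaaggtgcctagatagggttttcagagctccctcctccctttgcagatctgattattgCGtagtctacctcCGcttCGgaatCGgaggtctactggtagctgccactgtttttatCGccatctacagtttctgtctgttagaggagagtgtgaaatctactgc

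The first Grb10 window holds 45 CG dinucleotides, which puts it at percentile 98.1 of the 32851 promoter windows in the table, and the second holds 9 (percentile 54.2). The Plagl1 window holds 26 (percentile 83.1) and the Igf2r window 34 (percentile 92.3). The table holds 13 windows for 7 of the 8 measured genes, with none for Cdkn1c, and 11 of the 13 have more CG dinucleotides than the median window, which has 7. The 4 Igf2 windows hold 2, 14, 24 and 7, the 3 Mest windows 8, 17 and 17, of which the last 2 overlap almost wholly, and the Peg3 and Dlk1 windows 13 and 9. The short arm of the estrogen response element, searched as GGTCA and its reverse complement TGACC, occurs in 6 of the 13 windows and in 40.5% of all windows. The full palindrome, searched as GGTCANNNTGACC, which contains both arms, occurs in 0 of the 13 and in 0.0700% of all windows. These counts describe letters in the windows and not binding.

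Igf2 and Mest each contain a miRNA gene with a feature of its own. The mature sequences, from RefSeq on GRCm38.p6, are given with the seed (bases 2 to 8), which pairs with target RNAs, in capitals. Those of Mir483 lie inside Igf2 on the minus strand of chromosome 7 and those of Mir335 inside Mest on the plus strand of chromosome 6.
mmu-miR-483-3p at chr7:142654932-142654952: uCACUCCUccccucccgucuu
mmu-miR-483-5p at chr7:142654968-142654989: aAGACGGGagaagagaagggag
mmu-miR-335-5p at chr6:30741314-30741336: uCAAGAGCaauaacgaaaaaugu
mmu-miR-335-3p at chr6:30741354-30741375: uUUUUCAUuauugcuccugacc

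The 4 seeds all differ. Mir483 read 6.69, 6.75 and 6.51 in CON, 6.81, 6.45, 6.75 and 6.29 in E2, 6.63, 6.79 and 6.73 in HD and 6.16, 6.45 and 6.59 in MIX. MIX replicate 1 was the lowest and E2 replicate 1 the highest, and the averaged pellet difference was -0.14 (SE 0.10, adjusted p = 0.652 in limma). Mir335 read 5.30, 5.79 and 5.0004 in CON, 5.45, 5.33, 5.44 and 5.17 in E2, 5.32, 5.41 and 5.41 in HD and 5.26, 5.31 and 5.41 in MIX. CON held both its extremes, and its averaged pellet difference was 0.04 (SE 0.10, adjusted p = 0.927). The sources do not say whether these features read the mature miRNA, its precursor or the host transcript. Of 13 miRNA genes in the loci of the members, 8 had a feature of 1 symbol, and none passed in the averaged pellet difference. Mir136 (0.15, SE 0.05, adjusted p = 0.378), Mir431 (-0.23, SE 0.12, adjusted p = 0.554) and Mir411 (0.11, SE 0.07, adjusted p = 0.589), all of the Dlk1 and Meg3 locus, had the smallest p. Their means over all mice, 2.45, 4.45 and 2.39, lay below the median feature of 4.62. Those of Mir136 and Mir411 were at percentiles 1.55 and 0.939 of the features, so these 2 differences are between values near the floor of the arrays.

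Among 44 other genes measured of 50 listed as imprinted, 17 were higher and 27 lower with the pellet, with a median of -0.03, as over all features. The arrays do not show whether these genes are imprinted in the endometrium. None passed in limma, and 3 of the higher and 2 of the lower had an unadjusted p under 0.05, against 9.99% of all features. Of all features 38.9% were higher. The smallest p were those of Ppp1r9a, an actin-binding protein gene (-0.64, SE 0.19, adjusted p = 0.348), H13, a signal peptide peptidase gene (0.17, SE 0.06, adjusted p = 0.417), and Cd81, a tetraspanin gene (0.30, SE 0.11, adjusted p = 0.421). Of 8 relatives of the members that are not imprinted, 4 were higher and 4 lower, with a median of 0.01, and none passed. In each direction 1 of them had an unadjusted p under 0.05, against 9.99% of all features. The adaptor gene Grb7 differed by -0.55 (SE 0.17, adjusted p = 0.367), the p21 gene Cdkn1a by 0.79 (SE 0.30, adjusted p = 0.441) and Plagl2 by -0.19 (SE 0.10, adjusted p = 0.549).

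The IGF axis, in which Igf2, Igf2r and Grb10 act, had larger single differences. Of 16 measured genes of 20 listed, 9 were higher and 7 lower with the pellet, with a median of 0.04. Over all features 38.9% were higher and the median was -0.03. None passed in limma, and 3 of the higher and 1 of the lower had an unadjusted p under 0.05, against 9.99% of all features. Irs1, the docking protein of the insulin and IGF1 receptors, read 8.38, 8.40 and 9.98 in CON, 6.52, 7.32, 7.47 and 8.59 in E2, 8.77, 7.97 and 8.23 in HD and 7.32, 7.62 and 6.33 in MIX. All MIX mice lay below all HD and CON mice, while E2 replicate 4 lay within the range of CON, and the averaged difference was -1.63 (SE 0.33, adjusted p = 0.189). Of all features, 12.4% were lower in MIX than in CON without overlap, and 15.9% had no overlap between MIX and HD. The IGF-binding protein genes Igfbp6 and Igfbp7 differed by 0.79 (SE 0.22, adjusted p = 0.328) and 0.67 (SE 0.27, adjusted p = 0.460).

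Regulators of imprints and DNA methylation, which hold genes that set, keep and remove methylation, lay mostly lower with the pellet, at 16 of 19 measured with a median of -0.14, where 61.1% of all features were lower and the median was -0.03. None passed in limma, and 3 of the lower and 0 of the higher had an unadjusted p under 0.05, against 9.99% of all features. Setdb1, a histone H3 lysine methyltransferase gene, differed by -0.22 (SE 0.08, adjusted p = 0.426), the 5-methylcytosine oxidase gene Tet1 by -0.52 (SE 0.21, adjusted p = 0.466) and the DNA methyltransferase gene Dnmt3a by -0.22 (SE 0.09, adjusted p = 0.472).

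**Figure D4:**
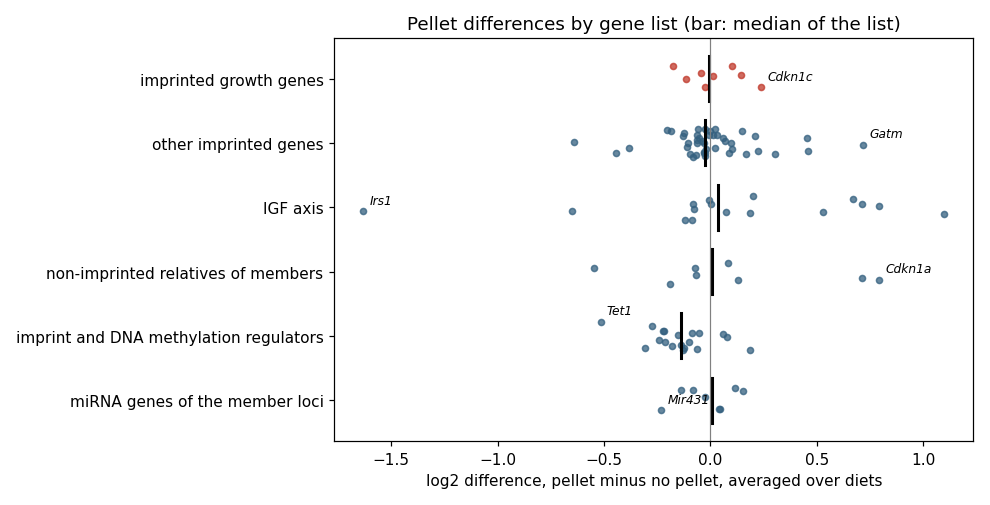
Averaged pellet difference (x axis, log2 difference, pellet minus no pellet) of each measured gene, by list, with a bar at the median of the list. The 8 imprinted growth genes lie between -0.18 and 0.24, the IGF axis reaches to -1.63 at Irs1, and 16 of the 19 regulators lie below 0.

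The genes most like each member were taken as those with the highest r over the 13 mice among 14852 named genes at or above the median feature, as a description. They were Rgs2 (r = 0.949), Frmd6 (0.912) and Fam126a (0.905) for Cdkn1c, and Flna (0.912), Clcf1 (0.908) and Them5 (0.902) for Grb10. For Plagl1 they were Ttll4 (0.949), Arnt2 (0.944) and Zfp568 (0.928), and for Igf2r Pi4k2a (0.905), Man2b1 (0.897) and Vopp1 (0.883). For Mest they were Npr2 (0.941), Eng (0.928) and Robo2 (0.925), and for Peg3 Rab36 (0.962), Tvp23a (0.949) and Numbl (0.949). Those of Igf2 were Sgca (0.952), Ppy (0.946) and Btnl9 (0.927), and those of Dlk1 Tesmin (0.965), Sstr2 (0.936) and Carmil2 (0.931). Eng, an endothelial receptor gene, is no member of the endothelial marker list used here. No member was among the genes most like another member. The highest of so many r over 13 mice is large by selection, and no baseline was computed. The lists therefore do not show that these genes vary with the members in other mice. Igf2, Dlk1 and Peg3, whose first genes had the highest r, had 5, 4 and 7 mice with an identical value.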

How the data were processed

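Endometrial RNA of 13 mice was measured on 1 array each. The authors deposited log2 expression values per feature, and the submitters' processing notes name RMA as their source, with no version or array library stated. RMA treats all arrays together and compresses differences of dim features. No read depth exists, and precision is limited by the number of arrays. Names came from the platform annotation, with 827 symbols updated through Entrez identifiers: 30604 of 65929 features had 1 symbol, 2146 several and 33179 none. A gene was represented by its feature with the highest mean.

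In R 4.3.3, limma 3.58.1 (lmFit, eBayes) fitted all features to 4 group coefficients and the style of the animal code, leaving 8 residual degrees of freedom (prior 2.23). Tests are two-sided with Benjamini-Hochberg adjustment over all features and a threshold of 0.05. The script was tested on simulated data. Members are all named, and each comparison names those that passed or else the 3 with the smallest p, as does each other list for the averaged pellet difference. The fit with its code style term, the members and the lists were chosen with earlier results of these data known. Promoter and miRNA sequences come from RefSeq tables of GRCm38.p6, and the labels name no build for the array. Alternatives covered the covariate, code style, a replicate block, dim features, scaling, moderation, array weights, the groups fitted and each mouse left out.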

Additional observations from a re-analysis of the deposited data

Results flagged for a closer look

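In E2, Peg3 in replicate 4 lay apart at 4.726, where the other 3 E2 mice had the identical value 4.632401. With 3 tied values the gap to the nearest mouse is the whole range of the group whatever the fourth value is, so Dixon's limit for 4 samples tests nothing here, and 4.726 is given as a value only.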

How the results depend on the processing

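In each comparison 0 of the 8 members were called under every one of the 20 to 22 alternatives, and the smallest adjusted p of a member in any alternative was 0.147 (Cdkn1c, averaged pellet difference). Over all features the calls ranged from 0 to 89 in MIX with CON (2 in the fit reported), 0 to 80 in MIX with HD (3), 0 to 24 in MIX with E2 (0), 0 to 2 in the interaction (0), 0 to 224 in the averaged pellet difference (11) and 0 to 3 in the averaged diet difference (0). Of 29 named differences, 11 kept their sign in all alternatives and 18 changed it in at least 1, which made 34 of 601 alternative values. Those of Cdkn1c kept their sign in all of the comparisons that name it. In the numbered mice the sign turned for Igf2r in HD with CON (-0.0269), and in the lettered mice for Igf2r in MIX with HD (-0.069, also with only these groups fitted), for the interaction of Plagl1 (-0.144) and Igf2 (-0.0272) and for the averaged pellet difference of Plagl1 (0.195) and Grb10 (0.259). Array weights turned Igf2r in HD with CON (-0.00397), Mest in MIX with HD (-0.0253) and Peg3 in the averaged pellet difference (-0.0399). Centring the arrays added 0.10 to all differences of MIX with HD and 0.06 to those of the pellet, where Igf2 became 0.0156 and Dlk1 0.0369. Without the code style term Dlk1 in MIX with E2 was -0.00321.

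Replicate numbers were not treated as pairs in the fit reported. Deviations from the group means correlated at -0.261 to 0.310 over 18 pairs of same-numbered mice. Pairs with unlike numbers were not computed beside them, so this range cannot show whether the numbers pair the mice. With a replicate block Plagl1 in MIX with E2 was 0.464, Igf2 in the interaction -0.00528 and Grb10 in the averaged diet difference 0.0877, and no member was called. With 1 mouse left out, Igf2r ranged from -0.0105 to 0.295 in MIX with CON, -0.0407 to 0.259 in MIX with HD, -0.0157 to 0.183 in MIX with E2 and -0.012 to 0.185 in the averaged pellet difference. In that difference Mest ranged from -0.0341 to 0.26, Grb10 from -0.393 to 0.0395, Dlk1 from -0.0756 to 0.0246 and Peg3 from -0.0475 to 0.0708. Mest in MIX with HD ranged from -0.0928 to 0.377, Plagl1 in MIX with E2 from -0.462 to 0.12, and the interaction from -0.0536 to 0.965 for Grb10, -0.0581 to 0.6 for Plagl1 and -0.0258 to 0.116 for Igf2. The correlation of Igf2 with Dlk1 was -0.31 without the 2 mice farthest from the median of Igf2, and among the numbered mice, an alternative chosen after seeing the data, r was -0.304 for Cdkn1c with Peg3 and 0.21 for Grb10 with Igf2r. The cause of these turns was not tested. Each member had 1 feature, so the mean over its features was not run. The fit of the numbered mice holds no MIX comparison, and the fit of only the groups compared gives no interaction or averaged difference. The fit of the lettered mice has 1 mouse each in CON, E2 and HD.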
